A study of Homo sapiens with 8 samples.

Results

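Weak coding promoters are stretches of acetylated chromatin over a transcript start of a protein-coding gene that some libraries of the series called and others did not. H3K27ac (acetylation of a lysine in the tail of histone H3) was profiled by ChIP-seq in A549, a human lung adenocarcinoma cell line with mutant KEAP1, in which the transcription factor NRF2 is constantly active. Cells had received a control siRNA (3 libraries) or an siRNA against NRF2 (3 libraries) 48 h earlier, and the NRF2 siRNA was number 28 in replicate 1 and number 30 in replicates 2 and 3. Peak names of replicates 2 and 3 carry the identifier of the same sequencing flow cell and those of replicate 1 do not, so siRNA and batch cannot be told apart, and 2 input samples were not analysed here. Overlapping peaks of the 6 lists were merged into 49186 regions, of which 11949 held a coding start. The members were chosen by the measured calls themselves: a region had to be called in 2 to 5 libraries, and the 83 coding regions that separated the groups fully (67 with 3 control and 0 NRF2 siRNA calls, 16 with the reverse) were left out. This left 3724 regions, 31.2% of those with a coding start and 7.57% of all regions. The other coding regions were the 7585 called in all 6 libraries and the 557 called in 1.

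Histone acetylation at H3K27 is laid down by the acetyltransferases p300 and CBP and marks promoters and enhancers that are in use. Promoters in mammals are of broadly different kinds. Many lie in CpG islands, where CG dinucleotides are dense and transcripts begin at several nearby positions, and others are poor in CG and are used in particular cell types. A promoter near the limit of peak calling can hold little acetylation in every cell or much of it in few cells, and the peak lists cannot tell these apart.

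The sequences in front of weak promoters are shown first, since most of them looked like those of ordinary CpG island promoters. Sequences are the 120 bases before the canonical start (the representative transcript of the gene in the annotation), 5′ to 3′ on the gene's strand, read from GRCh37, with each CG in capitals. The first 3 are the CpG-rich weak promoters (CG frequency over 0.6 of that expected from C and G content) of highest mean rank whose 120 bases lie outside annotated UTRs, and the last 3 are the highest-ranking ones with a CG frequency under 0.3 of expectation. Both sets were chosen after their values were seen.
FRAT2, an inhibitor of the kinase GSK3, chr10:99094487-99094606, minus strand: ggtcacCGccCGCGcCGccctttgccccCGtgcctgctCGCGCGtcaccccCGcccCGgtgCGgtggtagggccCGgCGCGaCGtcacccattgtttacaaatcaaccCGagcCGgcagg
SAMD15, chr14:77843602-77843721, plus strand: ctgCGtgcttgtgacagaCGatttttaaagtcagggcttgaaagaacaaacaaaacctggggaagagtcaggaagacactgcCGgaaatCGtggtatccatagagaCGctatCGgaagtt
TMED8, chr14:77843438-77843557, minus strand, transcribed away from SAMD15, with both starts in the same region: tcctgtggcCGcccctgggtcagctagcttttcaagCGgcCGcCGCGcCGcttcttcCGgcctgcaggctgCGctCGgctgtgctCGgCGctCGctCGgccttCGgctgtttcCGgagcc
ADNP2, a homeobox zinc finger protein, chr18:77867026-77867145, plus strand: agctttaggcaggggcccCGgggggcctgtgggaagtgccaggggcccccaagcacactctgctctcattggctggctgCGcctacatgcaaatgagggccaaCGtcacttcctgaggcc
TAPBPL, a partner of MHC class I molecules in peptide loading, chr12:6561088-6561207, plus strand: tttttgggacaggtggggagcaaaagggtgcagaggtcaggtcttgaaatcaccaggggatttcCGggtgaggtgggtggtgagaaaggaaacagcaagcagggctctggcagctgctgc
C1orf226, chr1:162351398-162351517, plus strand: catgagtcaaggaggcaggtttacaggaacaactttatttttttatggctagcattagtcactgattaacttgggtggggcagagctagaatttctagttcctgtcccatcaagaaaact
The FRAT2 stretch holds 17 CG dinucleotides, that of SAMD15 6 and that of TMED8 15, against 3 for ADNP2, 1 for TAPBPL and 0 for C1orf226.

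By base composition the weak promoters were close to the strong ones and far from silent starts. Over the 2965 canonical starts in weak promoters, the median ratio of observed to expected CG in the 300 bases from 250 upstream to 50 downstream was 0.861 (quartiles 0.738 and 0.964), against 0.870 at the 7323 canonical starts in regions of all 6 libraries and 0.476 at the 9279 in no region. Windows with a ratio over 0.6 and more than 50% GC made up 86.9% of weak promoters, 87.0% of those called in all 6 libraries, 41.6% of starts in no region and 65.6% of all 19861 canonical coding starts. Within the weak promoters this share changed little with the number of calls, from 84.8% of starts called in 2 libraries to 87.7% of those called in 5. Weak promoters whose control libraries called more often had a share of 87.2%, and those with more NRF2 siRNA calls 86.0%.

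Short motifs were counted in the same window on both strands as letter matches only. The GC box GGGCGG, bound by Sp1 and related factors, was in 76.6% of weak promoters, 73.1% of promoters of all 6 libraries and 61.5% of all canonical coding starts. The ETS motif CCGGAA was in 31.8%, 34.3% and 22.8% in the same order, and CCAAT in 36.1%, 36.7% and 36.0%. TATAAA, searched on the gene's strand from 40 to 16 bases before the start, was in 29 weak promoters (0.978%), in 2.13% of promoters of all 6 libraries and in 6.27% of starts in no region. The TATA share of weak promoters was the lowest of these classes, and their shares of GC box, ETS and CCAAT lay within 4 percentage points of those of strong promoters; none of this was tested.

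The core of the antioxidant response element, TGACNNNGC, to which NRF2 binds together with small MAF proteins, had like shares in weak and strong promoters. It was in the window of 468 of the 2965 weak promoters (15.8%), in 15.2% of promoters of all 6 libraries and in 14.0% of all canonical coding starts. Among weak promoters with more control calls 15.6% held it, and among those with more NRF2 siRNA calls 15.1%. In the 250 bases upstream alone, 384 weak promoters (12.95%) had a match. Of the 8 of highest mean rank that met the conditions given with the methods, such as lying outside annotated UTRs, 6 are given as 61 bases of the gene's strand in GRCh37, with the match in capitals (its reverse complement reads GCNNNGTCA); each was called in 3 control and 2 NRF2 siRNA libraries.
FRAT2, chr10:99094494-99094554: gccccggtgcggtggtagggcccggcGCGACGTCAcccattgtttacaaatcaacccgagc
ING3, a subunit of the NuA4 histone acetyltransferase complex, chr7:120590703-120590763: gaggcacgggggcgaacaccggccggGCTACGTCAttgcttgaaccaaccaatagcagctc
TMEM37, chr2:120189251-120189311: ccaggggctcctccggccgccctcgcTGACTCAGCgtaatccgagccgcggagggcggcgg
CHFR, a mitotic checkpoint ubiquitin ligase, chr12:133464317-133464377: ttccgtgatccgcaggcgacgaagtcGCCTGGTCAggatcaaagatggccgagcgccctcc
HSPA6, an inducible member of the HSP70 family, chr1:161494163-161494223: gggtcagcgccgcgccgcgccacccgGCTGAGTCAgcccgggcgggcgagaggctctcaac
CCSER2, chr10:86088118-86088178: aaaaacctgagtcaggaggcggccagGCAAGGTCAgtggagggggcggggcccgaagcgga
In TMEM37 and HSPA6 the matched letters also contain the AP-1 site TGACTCA or its reverse complement TGAGTCA, which in all was in 70 weak promoters (2.36%) and in 3.56% of all canonical coding starts.

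The 6 libraries called very unequal numbers of weak promoters, and replicate 1 stood apart in both groups. Control siRNA replicates 1, 2 and 3 called 1552, 2950 and 3631 members, and NRF2 siRNA replicates 1, 2 and 3 called 437, 2895 and 3493. In percent of all members this was 41.7%, 79.2% and 97.5% for control siRNA and 11.7%, 77.7% and 93.8% for NRF2 siRNA. The groups overlapped: the means were 2711 ± 1060 and 2275 ± 1620 (SD, n = 3), and the difference of −436 was smaller than either SD. Within pairs of the same replicate number, NRF2 siRNA called 1115, 55 and 138 fewer members than control in pairs 1, 2 and 3, so the shortfall was almost entirely in pair 1. The order of the libraries was the order of their list lengths except within pair 2. The lists held 27941, 34747 and 41571 peaks in control siRNA and 23885, 34986 and 39108 in NRF2 siRNA. The reporting summary of the study lists fewer mapped reads for the first replicate of each group than for the other libraries. The part of read depth in these counts was not tested.

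**Figure D1:**
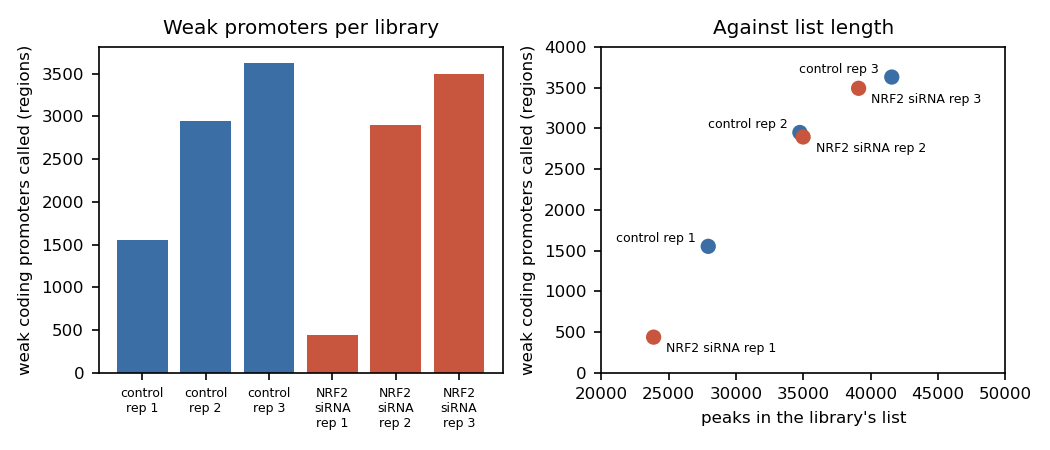
Weak coding promoters called in each library (left, bars from 0) and the same counts against the number of peaks in the library's list (right); blue is control siRNA and red NRF2 siRNA. NRF2 siRNA replicate 1, the shortest list with 23885 peaks, called 437, while control siRNA replicate 3, the longest with 41571, called 3631.

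Weak promoters were a small share of each list and ranked below the promoters of all 6 libraries in it. They made up 6.21%, 9.28% and 8.97% of the regions called in control siRNA replicates 1, 2 and 3 and 2.13%, 8.99% and 9.32% of those in NRF2 siRNA. Where a library called them, their median fold enrichment (ChIP signal over the peak caller's local background, highest peak of the region) was 3.47, 3.40 and 4.20 in control siRNA and 3.34, 3.52 and 3.47 in NRF2 siRNA. Coding promoters called in all 6 libraries had medians of 4.97, 5.59 and 7.87 in control siRNA and 4.31, 5.80 and 6.36 in NRF2 siRNA. Ranked within each list, where 100 is the highest region, weak promoters had median percentiles of 30.7, 34.9 and 50.6 in control siRNA and 24.1, 34.6 and 40.1 in NRF2 siRNA, and promoters of all 6 libraries had medians from 60.6 to 81.0. Control siRNA replicate 3 gave the highest values: 27.6% of its weak promoters reached 5-fold, against 8.45% in NRF2 siRNA replicate 3 and 1.60% to 6.42% in the other libraries.

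Enrichment was higher the more libraries called a promoter, which is given as a description, since the calls chose the members. The median of the highest fold over the 6 libraries was 3.31 for the 509 members called in 2 libraries, 3.63 for the 534 called in 3, 4.28 for the 1067 called in 4 and 5.02 for the 1614 called in 5. Just outside the rule it was 2.84 for coding regions of 1 library and 8.08 for those of all 6. The name weak did not hold for every member: 58 (1.56%) reached a highest fold above 8.08, the median of the promoters of all 6 libraries, and 53 of them were called in 5 libraries. CYP4F11, a cytochrome P450 that hydroxylates fatty acids, had the highest fold of any member (15.5).

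**Figure D2:**
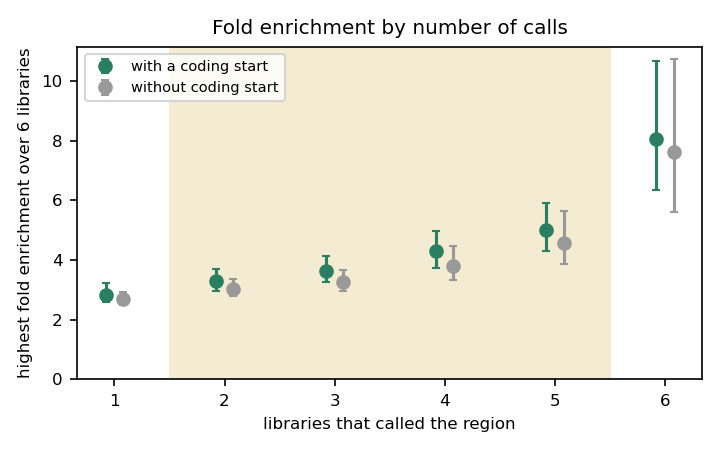
Highest fold enrichment over the 6 libraries (median and quartiles) by the number of libraries that called the region, for regions with a coding start (green) and without (grey); the shaded counts 2 to 5 are those of the weak promoters. Medians of coding regions climb from 2.84 at 1 library to 5.02 at 5 and 8.08 at 6.

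Of the 42 call patterns that occurred, 6 covered 84.7% of the members. In the most frequent, 1269 regions (34.1%), NRF2 siRNA replicate 1 alone lacked the peak. The next was 871 regions (23.4%) that both replicate 1 libraries lacked and the other 4 libraries called. Then came 290 regions lacking only in control siRNA replicate 1, 270 called only in replicate 3 of both groups, 231 called in replicate 3 of both groups and NRF2 siRNA replicate 2, and 222 called in control siRNA replicates 2 and 3 and NRF2 siRNA replicate 3. Of the 1614 members called in 5 libraries, the missing library was NRF2 siRNA replicate 1 in 78.6% and control siRNA replicate 1 in 18.0%. Of all members that either replicate 3 library called, 91.6% were called by both, the highest share of any pair of libraries. For the replicate 1 libraries this was 3.70%, a value that the rule keeps low, since regions called in both short lists were mostly called in all 6 and so are no members.

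**Figure D3:**
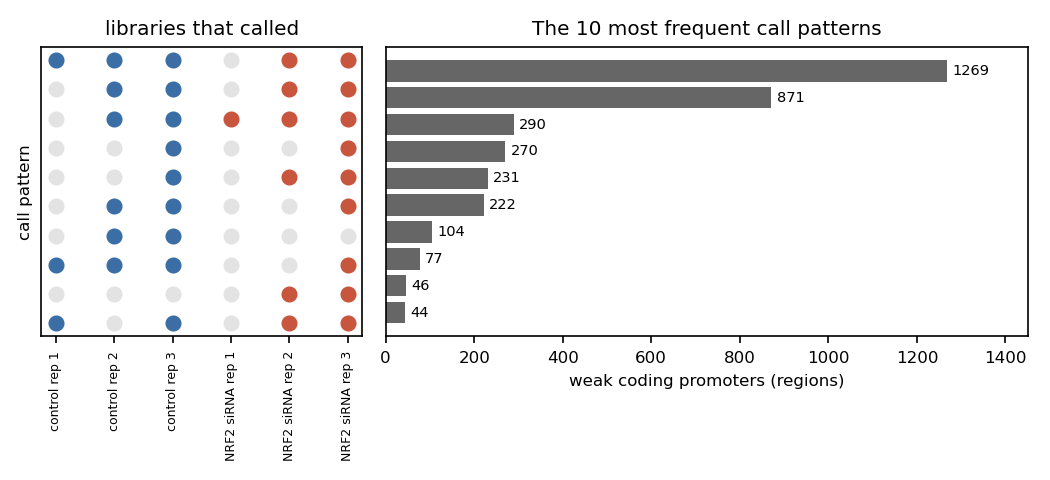
The 10 most frequent call patterns among 3724 weak promoters; filled dots mark the libraries that called (blue control siRNA, red NRF2 siRNA) and bars give the number of regions. The 2 longest bars, 1269 and 871 regions, lack NRF2 siRNA replicate 1, and the second also lacks control siRNA replicate 1.

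More control than NRF2 siRNA libraries called 1814 members, fewer called 656, and 1254 had equal numbers, so 73.4% of the unequal ones were control-heavier. This share rested on single libraries. Pair 1 alone gave 80.2%, pair 2 53.2% and pair 3 72.1%, while pairs 2 and 3 taken as a set gave 57.4% (535 against 397). Without NRF2 siRNA replicate 1, comparing the share of each group that called, it was 23.3% for the same members. That setting keeps control siRNA replicate 1, so the 871 regions that both replicate 1 libraries lacked turned from equal to NRF2 siRNA-heavier. The reversal thus follows from leaving out 1 short list and keeping the other. Without control siRNA replicate 3 it was 49.2% for the same members and 51.7% with members chosen anew. Regions without a coding start that passed the same call rule had a share of 55.9% over 3 pairs and 45.3% over pairs 2 and 3. These shares describe the rule's own calls, and nothing is read from them.

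A rank score compared the groups: the rank of each region's fold within a library, turned into a normal score, was fitted with limma over all 32673 regions called in 3 or more libraries. List length still enters this score. Regions that a library did not call share its lowest rank, and that rank's score depends on how many regions the list lacks. The 3215 members called in 3 to 5 libraries entered the fit, and the 509 called in 2 did not. After NRF2 siRNA 54 members (1.68% of those tested) had a lower score and 21 (0.653%) a higher one at a Benjamini-Hochberg adjusted p under 0.05, against a background over all regions tested of 3.39% lower and 2.01% higher. Every one of these lower members lacked a peak in NRF2 siRNA replicate 1, and every higher one lacked a peak in control siRNA replicate 1. These are the libraries with the shortest lists, and 34.1% of all members lacked only NRF2 siRNA replicate 1. With the replicate number as a block the counts were 151 lower and 44 higher, and the background was 6.62% and 5.72%. Both shares lay below the background, and since the rule used calls of the same libraries they support nothing. The counts also rested on single libraries: without control siRNA replicate 2 they were 0 and 0 (325 and 111 members had an unadjusted p under 0.05), without control siRNA replicate 3 they were 5 and 0, without NRF2 siRNA replicate 2 they were 7 and 0, without NRF2 siRNA replicate 3 they were 25 and 5, without control siRNA replicate 1 they were 28 and 12, and without NRF2 siRNA replicate 1 they were 68 and 38.

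The 5 lower members of lowest p had a fold above 5 in every control library. AKR1B1, aldose reductase (region chr7:134131529-134136134 in hg19), had folds of 8.63, 11.1 and 12.6 in control siRNA replicates 1, 2 and 3 and no peak, 2.91 and 3.23 in NRF2 siRNA. MAPRE3, a protein that binds microtubule ends (chr2:27237461-27239878), had 8.52, 6.58 and 10.9 in control siRNA and no peak, 2.70 and 2.75 in NRF2 siRNA. CYP4F11 (chr19:16044721-16047073) had 15.5, 9.59 and 12.6 in control siRNA and no peak, 3.02 and 2.74 in NRF2 siRNA. In all of these the control and NRF2 siRNA values did not overlap, and in pair 1 the NRF2 siRNA value was a missing peak. They were chosen by lowest p on ranks of these same folds, so the separation follows from the choice and supports nothing further. ETFB, a subunit of the flavoprotein that passes electrons from fatty acid oxidation to the respiratory chain, had 5.35, 7.04 and 7.77 in control siRNA and no peak, 2.97 and 2.82 in NRF2 siRNA. SLC48A1, a heme transporter with another start in a region of all 6 libraries, had 7.78, 7.54 and 10.8 in control siRNA and no peak, 3.61 and 3.001 in NRF2 siRNA. At these promoters, chosen in the same way, the lowest control value was also above the highest NRF2 siRNA value.

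Of members called in 3 control and 1 NRF2 siRNA libraries, the 5 with the largest fall in mean score were KBTBD2, KIAA0232, FECH, REPS1 and TDO2. FECH is ferrochelatase, which inserts iron into protoporphyrin to make heme, and its promoter (chr18:55252968-55255462) had folds of 5.54, 5.44 and 8.20 in control siRNA, no peak in NRF2 siRNA replicates 1 and 2 and 2.93 in replicate 3. TDO2, a dioxygenase that breaks down tryptophan, had 4.93, 5.01 and 6.59 in control siRNA and a peak of 2.86 only in NRF2 siRNA replicate 2. KBTBD2, a substrate adaptor of a cullin ubiquitin ligase, had 5.57, 5.35 and 6.43 in control siRNA and 2.37 only in NRF2 siRNA replicate 3. The KBTBD2, KIAA0232, REPS1 and TDO2 regions held starts of other transcripts than the canonical one, and KBTBD2 had another start in a region of all 6 libraries.

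The 5 higher members of lowest p had no control fold above 3.19. DCLK1, a kinase of the doublecortin family, had no peak in control siRNA replicate 1, folds of 2.83 and 2.97 in replicates 2 and 3, and 4.74, 5.32 and 5.27 in NRF2 siRNA. MLIP, a partner of lamin A, had a peak of 2.77 only in control siRNA replicate 2 and folds of 3.67, 5.52 and 5.54 in NRF2 siRNA. FUBP1, a DNA-binding protein, had no peak, 2.60 and 3.04 in control siRNA and 3.40, 4.19 and 4.25 in NRF2 siRNA. All NRF2 siRNA values were above the control ones at these promoters, which were chosen by lowest p on ranks of the same folds. The FUBP1 region held starts of other transcripts than the canonical one, and FUBP1 had another start in a region of all 6 libraries. DENND2B and the transcription factor gene SOX15 completed the 5 of lowest p among the higher ones, with NRF2 siRNA folds of 3.56 to 5.10 and 3.22 to 4.28. Among members called in 1 control and 3 NRF2 siRNA libraries, the largest rises in mean score were at MLIP, ADORA1, CCDC149, PAK6 and TRIM21. The MLIP, ADORA1, CCDC149 and PAK6 regions held starts of other transcripts than the canonical one. ADORA1, the adenosine receptor A1, had 2.57 in control siRNA replicate 2 only and 4.13, 3.48 and 4.03 in NRF2 siRNA. TRIM21, a ubiquitin ligase that binds antibodies, had 4.11 in control siRNA replicate 3 only and 4.28, 4.70 and 4.46 in NRF2 siRNA, so that its called values nearly met. Only 1 of the libraries that called the TRIM21 region had a peak over a coding start.

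**Figure D4:**
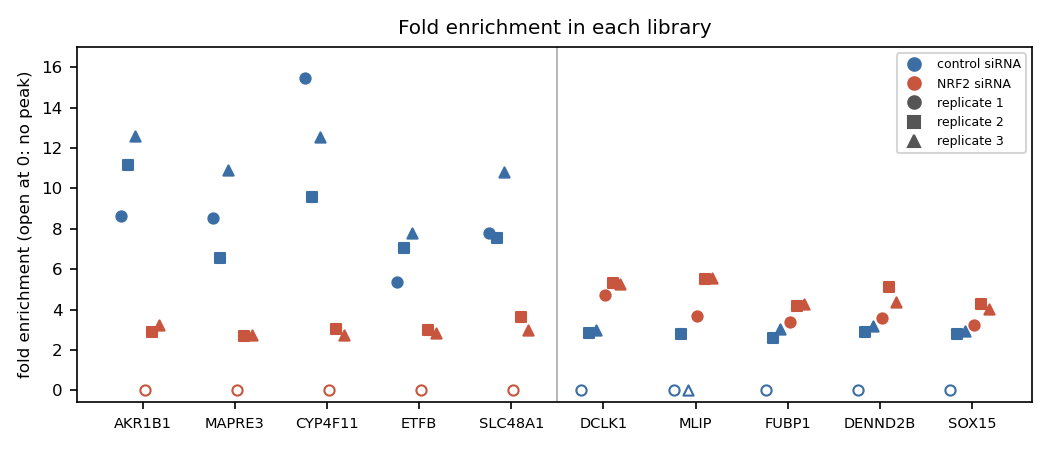
Fold enrichment in each of 6 libraries at the 5 lower (left of the line) and 5 higher weak promoters of lowest limma p; blue is control siRNA, red NRF2 siRNA, shapes give the replicate and open symbols at 0 mark no peak. At AKR1B1 the control values run from 8.63 to 12.6 and those of NRF2 siRNA reach 3.23.

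Members called in 2 libraries of one group and none of the other were few: 144 had 2 control calls and 52 had 2 NRF2 siRNA calls, and their folds were near the calling limit. The highest-ranking ones of control siRNA included PARS2, LDLRAD3, PITPNM2 and PCDHA4, of which PITPNM2 had another start in a region of all 6 libraries. PARS2, the mitochondrial prolyl-tRNA synthetase, had folds of 3.76 and 4.69 in control siRNA replicates 2 and 3 and no peak elsewhere. On the other side stood PRLR, LDLRAD4, RNF214, MMP11 and FRMD6, all called in NRF2 siRNA replicates 2 and 3 only. Their regions held starts of other transcripts than the canonical one, and MMP11 and FRMD6 had another start in a region of all 6 libraries. PRLR, the prolactin receptor, had 4.75 and 4.37, and MMP11, a matrix metalloproteinase, 3.68 and 3.17.

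Known targets of NRF2 were mostly not among the weak promoters. Of 37 canonical target genes 34 had a start in a region of all 6 libraries and 2, AKR1C1 and CBR3, had weak promoters only. AKR1C1, a hydroxysteroid dehydrogenase (chr10:5003377-5009685), had folds of 4.47, 4.88 and 5.31 in control siRNA and no peak, 2.87 and 2.93 in NRF2 siRNA, with no overlap. It belongs to a family of near-identical neighbouring genes, and whether reads were shared between them after the authors' filter on mapping quality was not tested. CBR3, a carbonyl reductase, was called at 2.77 and 2.99 in control siRNA replicates 2 and 3 and in no NRF2 siRNA library. ABCC1, an exporter of glutathione conjugates, and AKR1C3, another hydroxysteroid dehydrogenase, had a weak region at an alternative start beside a start in a region of all 6 libraries. The ABCC1 region had 3.17, 3.67 and 3.69 in control siRNA and no peak, 3.41 and 2.84 in NRF2 siRNA, and only 1 of its calling libraries had a peak over a coding start. The AKR1C3 region had 2.82, 3.29 and 3.51 in control siRNA and no peak, 3.35 and 3.09 in NRF2 siRNA, so the called values overlapped at both. All 4 regions had more control than NRF2 siRNA calls, and 3 of them lacked only NRF2 siRNA replicate 1, the pattern of 34.1% of all members. The siRNA's effect on NRF2 itself cannot be checked here, since a peak list holds no transcript level.

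The weak promoters held starts of 3883 of 20163 coding genes (19.3%), and for 3160 of these no other start lay in a region of all 6 libraries. Counted by gene symbol, 15.7% of all coding genes had a weak promoter as their strongest class, 40.5% had a start in a region of all 6 libraries and 41.8% a start in none. The lists that follow were chosen with earlier results of these data known and are read beside these percentages. Of 78 genes of the mitochondrial ribosome 21 (26.9%) had weak promoters only, 56 had a start in a region of all 6 libraries and 1 had no region. Among those with any region the weak share was 27.3%, close to the 26.9% of all coding genes with any region. MRPS31, MRPL45, MRPL19 and MRPS22 ranked highest among them. MRPL19 had folds of 3.69, 3.99 and 6.92 in control siRNA and no peak, 3.75 and 5.28 in NRF2 siRNA, and MRPL45 had no peak, 4.39 and 5.76 in control siRNA and 3.38, 3.96 and 6.55 in NRF2 siRNA. The cytosolic ribosome differed: 75 of 81 genes were called in all 6 libraries and 3, RPS15, RPL11 and RPS7, were weak only. RPL36 had a weak region beside a start in a region of all 6.

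Zinc finger genes of the ZNF and ZFP names, many of which encode repressors, had weak promoters only in 130 of 537 genes (24.2%), with 177 in regions of all 6 libraries and 208 in none. Among those with any region the weak share was 39.5%. ZNF333, ZNF827, ZNF516 and ZNF260 ranked highest. ZNF333 shares its region (chr19:14800602-14801447) with a start of ADGRE3 and had folds of 4.69, 5.20 and 9.14 in control siRNA and no peak, 5.60 and 6.05 in NRF2 siRNA. Among the 141 weak regions of this family 52 were control-heavier, 19 NRF2 siRNA-heavier and 70 equal, against 1814, 656 and 1254 of all 3724 members.

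Cell cycle and replication genes were mostly strong, with 53 of 68 in regions of all 6 libraries and 10 (14.7%) weak only. CCNA2, the cyclin of S phase and G2, had folds of 4.83, 5.05 and 7.62 in control siRNA and no peak, 4.72 and 5.60 in NRF2 siRNA. CCND3, CDC6 and E2F8 were the others of highest rank and, like CCNA2, lacked a peak only in NRF2 siRNA replicate 1, as did 9 of the 15 weak regions of this list, against 34.1% of all members. The proteasome had 3 of 50 genes weak only, and replication-dependent histones 0 of 65.

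Genes of development and signalling were more often silent, and their weak promoters had moderate folds. Of 153 developmental transcription factors 24 (15.7%) were weak only, 33 were called in all 6 libraries and 90 in none. Among those with any region the weak share was 38.1%, against 26.9% of all coding genes with any region. EOMES, a T-box factor, had no peak in either replicate 1 library, 4.38 and 5.36 in control siRNA and 4.18 and 4.26 in NRF2 siRNA. HOXA10 had the same pattern, while HNF4A and DLX4 lacked only NRF2 siRNA replicate 1. HNF4A, a nuclear receptor of liver and gut, had a further start in a region of all 6 libraries. Of 128 genes of the Wnt, FGF, BMP, Hedgehog, Notch and TGF-beta pathways 15 (11.7%) were weak only. The ligand gene TGFB1 had no peak, 4.10 and 7.61 in control siRNA and no peak, 5.84 and 6.84 in NRF2 siRNA. The Wnt receptor FZD1 and the co-receptor TGFBR3 were likewise absent from both replicate 1 libraries, and the Hedgehog effector GLI2 was absent only from control siRNA replicate 1.

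Extracellular matrix and mesenchymal genes had 23 of 124 (18.5%) weak only, 34.8% of those with any region. COL4A2, a chain of basement membrane collagen, had folds of 4.35, 5.75 and 9.31 in control siRNA and no peak, 3.93 and 5.40 in NRF2 siRNA at an alternative start. COL21A1 and the fibronectin receptor subunit ITGA5 also lacked only NRF2 siRNA replicate 1, and COL16A1 lacked both replicate 1 libraries. The COL21A1 and COL16A1 regions held starts of other transcripts than the canonical one. COL16A1 was not weak only, with another start in a region of all 6 libraries. A549 is labelled an epithelial line, and of 94 epithelial genes 31 had a start in a region of all 6 libraries and 12 (12.8%) were weak only. These were 25.5% of the epithelial genes with any region. The desmosomal cadherin DSG2 had 3.57, 4.48 and 5.27 in control siRNA and no peak, 3.66 and 3.60 in NRF2 siRNA. TP63, the basal cell regulator, had 3.52, 3.49 and 5.52 in control siRNA and a peak only in NRF2 siRNA replicate 3, at 2.89. ABCA3, the lipid transporter of alveolar type II cells, was called in replicates 2 and 3 of both groups.

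Immune genes held some weak promoters in these epithelial cells. Of 72 interferon-stimulated and antigen presentation genes 13 (18.1%) were weak only. HLA-E, a non-classical MHC molecule, had no peak, 3.48 and 5.24 in control siRNA and 3.54, 3.14 and 3.06 in NRF2 siRNA. TAP2, which moves peptides into the endoplasmic reticulum, had 2.82, no peak and 3.62 in control siRNA and 4.04, 2.98 and 4.27 in NRF2 siRNA. IRF7 was called in control siRNA replicate 3 and NRF2 siRNA replicates 2 and 3 and its highest fold was 4.89. Of 110 genes of cytokines and their receptors 14 (12.7%) were weak only. IL1RAP, the shared subunit of interleukin 1 family receptors, had 4.08, 3.56 and 5.06 in control siRNA and no peak, 4.30 and 4.91 in NRF2 siRNA, and IL24, IL1R1 and the decoy receptor IL1R2 had the same calls. IL1R1 and IL1R2 were not weak only, since each had another start in a region of all 6 libraries. The IL1R2 region held starts of other transcripts than the canonical one.

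Markers of other cell types were rarely among the weak promoters. Weak promoters were the strongest class for 1 of 54 lymphoid genes (BCL11B), 0 of 38 myeloid genes, 1 of 30 endothelial genes (SOX17), 5 of 66 neuronal genes, 1 of 442 olfactory and taste receptors (OR51E2), 0 of 66 cancer-testis antigens and 2 of 66 protocadherins. The neuronal list included genes used outside neurons, such as the scaffold gene HOMER1 (2.68, 4.43 and 7.70 in control siRNA and no peak, 5.02 and 5.07 in NRF2 siRNA) and REST. Solute carriers, with 63 of 373 (16.9%), were near the share of all genes, and ion channels had 20 of 205 (9.76%). Most ion channel genes had no region, and of those with any region 43.5% were weak only. SLC14A1, a urea transporter, had a weak alternative promoter with no peak, 4.31 and 3.77 in control siRNA and 3.25, 7.76 and 7.75 in NRF2 siRNA, so that replicates 2 and 3 of NRF2 siRNA were above the control values and replicate 1 was below those of control siRNA replicates 2 and 3. Of 57 cytochrome P450 genes 4 were weak only, among them CYP4F11 above.

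**Figure D5:**
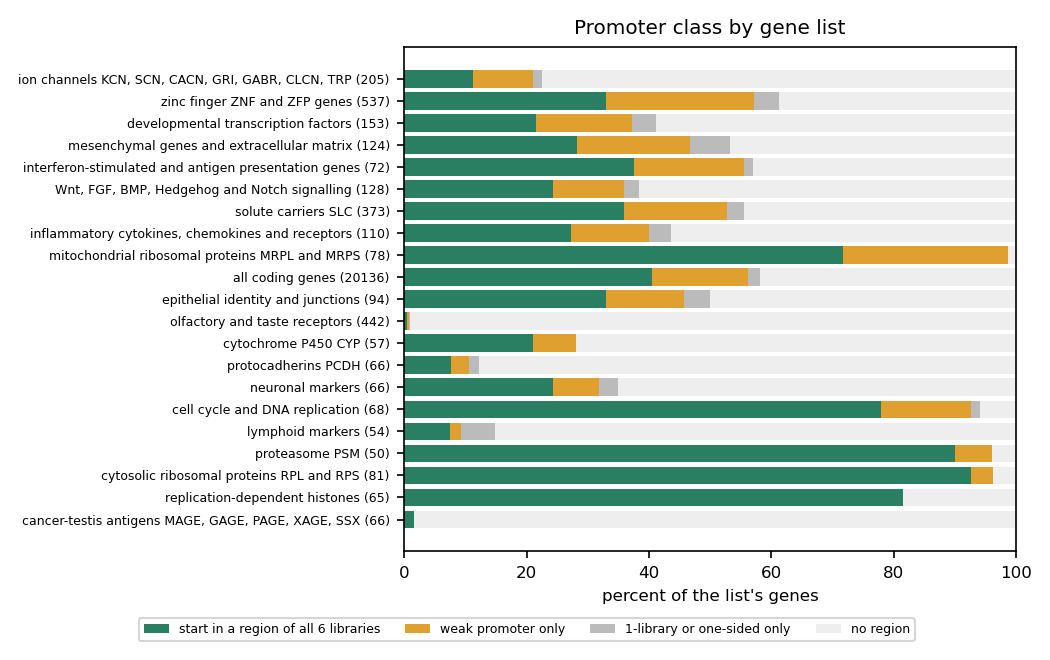
Percent of the genes of each list (number of genes in parentheses, lists of 50 or more) by their strongest promoter class, from a start in a region of all 6 libraries (green) to weak promoter only (orange), other partial regions (grey) and no region (pale). Lists are ordered by the weak share among genes with any region; the weak share of all genes is 26.9% for mitochondrial ribosomal proteins and 24.2% for zinc finger genes, against 15.7% for all coding genes.

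The promoters that ranked highest over the 6 lists were mostly high in 5 libraries and absent from 1. ADNP2 had folds of 4.93, 9.15 and 9.17 in control siRNA and no peak, 13.1 and 11.99 in NRF2 siRNA. ALDH4A1, a mitochondrial enzyme of proline breakdown, had 7.64, 6.68 and 8.87 in control siRNA and no peak, 10.5 and 8.50 in NRF2 siRNA. FRAT2 had 4.60, 8.34 and 13.1 in control siRNA and no peak, 9.42 and 8.14 in NRF2 siRNA. Only NRF2 siRNA replicate 1 had no peak at these promoters; the called values of the groups overlapped at ALDH4A1 and FRAT2, while at ADNP2 both called NRF2 siRNA values were above all control values. The shared region of SAMD15 and TMED8 (chr14:77842690-77843909) and that of ERMAP and SVBP were absent from control siRNA replicate 1 instead, with 6.64 and 5.35 in NRF2 siRNA replicate 1. MAP1LC3B2, CDK5RAP2, EDARADD, ITPK1 and ING3 completed the 10.

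Weak promoters were narrower than strong ones and held fewer genes. This is a description, since calls chose the classes and a region joins the peaks of all libraries that called it. Their median width was 1407.5 bp (quartiles 1045 and 1971 bp), against 2694 bp for promoters of all 6 libraries, and 75.8% were under 2000 bp. The median rose with calls, from 1005 bp at 2 libraries to 1644.5 bp at 5. Single peaks were shorter too, with medians of 598 against 1330 bp in NRF2 siRNA replicate 1 and 1214 against 2361 bp in control siRNA replicate 3. Starts of 2 or more genes lay in 366 (9.83%), against 18.3% of promoters of all 6 libraries, and starts on both strands in 289 (7.76%), against 14.9%. A canonical start was in 2709 (72.7%), against 82.1%, so 1015 weak promoters held alternative starts only. In 2145 (57.6%) every library that called the region had a peak over a coding start itself, and in the rest at least 1 library called only another part. In 385 (10.3%) most of the calling libraries had no peak over a coding start, among them the regions of TRIM21, ABCC1, ABCA3, BCHE, IL24 and IL1R2. The median distance to the nearest region called in all 6 libraries was 36512 bp, and 132 (3.54%) lay within 2000 bp of one. The widest, over TMEM37 (16525 bp), had folds of 5.33, 5.49 and 6.003 in control siRNA and no peak, 4.998 and 5.68 in NRF2 siRNA. NINL, KCTD1, BCHE and RNF217 were the next widest. BCHE, butyrylcholinesterase, was called in control siRNA replicates 1 and 3 and NRF2 siRNA replicate 1 only. Over the autosomes and X, the share of coding regions that were weak ran from 26.8% on chromosome 17 to 37.8% on chromosome 18.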

How the data were processed

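Per the labels and the methods of the study, H3K27ac ChIP libraries from 3 independent experiments were sequenced as single reads, trimmed with cutadapt 1.15, aligned to hg19 with Bowtie2 2.2.6 and filtered on mapping quality with SAMtools, and the authors called broad peaks in each library with MACS2 2.1.0.20151222 and removed blacklisted regions. The background given to the peak caller is not given in the sources used here. The deposited lists hold a score, a fold enrichment (ratio over local background), and the p-value and q-value as −log10 values. The lowest −log10 q-value in a list was 1.01 to 1.02. Lists hold no counts, so no read-based interval is given. The reporting summary of the study gives mapped reads for each library, which were not used. The score and p-value columns deposited by the authors were not used.

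Peaks overlapping by 1 bp or more were merged and placed on transcript starts of GENCODE 44 lifted to GRCh37. All 24 chromosomes with peaks were found in the GRCh37 sequence and none had a peak past its end. A region's value in a library was its highest fold, and no peak counted as lowest in ranks. Normal scores of ranks were fitted with limma 3.58.1 in R (NRF2 siRNA minus control, without a block, Benjamini-Hochberg over all 32673 regions), which was tested on simulated data. Replicate numbers come from the titles. Over all regions, deviations of same-numbered libraries from their group means correlated at 0.398, 0.199 and 0.363 in pairs 1, 2 and 3. Over the members alone they correlated only at 0.142, 0.055 and 0.106. The numbers were taken to pair libraries on the values over all regions, and the blocked counts are given too.

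The members and gene lists were chosen with earlier results of these data known. Named genes are those of highest mean percentile overall (10) and per list (up to 4), the 5 widest, the 5 largest falls and rises among 3 against 1, the 5 of highest rank called in 2 libraries of one group and none of the other, the 5 of lowest p in each direction, every canonical NRF2 target, and promoters with an antioxidant response element core (8 chosen off chromosome 8 and outside annotated UTRs, sequence printed for 6). Some of them are named without values, some are not reported here, and CpG-rich and CpG-poor promoters were added after their values were seen. Older symbols were matched through RefSeq names. Alternatives covered list length, q-value, call definition, merging, start definition, fit and each library in turn.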

Additional observations from a re-analysis of the deposited data

Results flagged for a closer look

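The median change in rank score over the 3215 members tested was 0.25 in the siRNA 28 pair (replicate 1) and −0.03 and −0.21 in the siRNA 30 pairs (replicates 2 and 3), so these medians had opposite signs. The difference was not tested. Neither replicate 1 library called 1347 of these members (41.9%), and each of them has a change of exactly 0.25 in that pair, because uncalled regions share the lowest rank and that rank's score depends on how many regions a list lacks. Of the 1868 members tested that a replicate 1 library called, 1465 scored lower and 403 higher after NRF2 siRNA in that pair. Their median change was −0.64. This split mostly restates which replicate 1 library called the member, since the one without a peak gives it the lowest rank. Over all weak promoters, tested or not, control siRNA replicate 1 alone of that pair called 1481 and NRF2 siRNA replicate 1 alone 366. Both called 71, a number that the call rule keeps low. No change after siRNA 28 is read from the split.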

How the results depend on the processing

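The number of weak promoters (3724) was 5869 at a q-value of at most 1e-05 and 1070 when chosen over pairs 2 and 3 only, an alternative added after seeing the data; without each library in turn it was 2394 to 3583. Under the other definitions of a call, a start or a merge, and with lists of equal length, it stayed within 1.5 times. Members called per library, NRF2 siRNA minus control (−436), ran from −898 to 438.5 without each library in turn, and from −1045 to 483 with the members kept. It reversed without NRF2 siRNA replicate 1 (438.5, or 483 with the members kept). Without control siRNA replicate 3 it was 24 with the members kept and −24.3 with members chosen anew. The control-heavier percent (73.4) ran from 23.6 to 87.4 without each library in turn and from 23.3 to 87.8 with the members kept. It reversed without NRF2 siRNA replicate 1 (23.6 and 23.3), a setting that keeps the short list of control siRNA replicate 1. Without control siRNA replicate 3 it was 49.2 with the members kept and 51.7 with members chosen anew. Leaving out control siRNA replicate 2 gave 58.4 with the members kept, and leaving out replicate 1 of that group gave 87.8. Over pairs 2 and 3 it was 57.4, or 52.8 with members chosen anew. Members with a lower and a higher rank score (54 and 21) were 151 and 44 with the replicate block, 94 and 41 with lists of equal length, 127 and 72 over pairs 2 and 3, 182 and 89 over pairs 2 and 3 with the block, and 0 to 68 and 0 to 38 without each library in turn. Over all regions tested the counts without each library in turn were 0 to 1716 and 0 to 882. The counts of genes per list stayed within 1.5 times when starts of protein-coding transcripts alone were used, and the CpG-rich share of weak promoters stayed within its 95% Wilson interval with 500 bases on each side. The causes were not tested.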

Other observations

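The AP-1 site TGACTCA differed in frequency between weak promoters by the direction of their calls over pairs 2 and 3, a contrast chosen after seeing the data. In the window from 250 bases upstream to 50 downstream it was in 3 of 372 canonical starts (0.806%) with more control calls and in 15 of 259 (5.79%) with more NRF2 siRNA calls, against 2.36% of all weak promoters. Over all 3 pairs it was in 32 of 1484 (2.16%) and in 20 of 470 (4.26%). With 500 bases on each side the shares were 6.45% and 13.1%, against 7.45% of all weak promoters. No other motif counted differed by as much as a factor of 1.5 in the same contrast, and the core of the antioxidant response element was in 16.4% and 16.6%. The difference was not tested.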
